A study of Homo sapiens with 6 samples.

Results

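*YAP1*, *WWTR1*, *TEAD1*, *TEAD4*, *CCN1*, *CCN2*, *ANKRD1*, *AMOTL2*, *LATS2* and *AJUBA* are 10 genes of the YAP-TEAD pathway, chosen by name as the coactivators, DNA-binding partners, regulators and targets of the pathway. They are 10 of the 21475 genes used from the tables, and 8 of them passed the filter, which asked for a mean of 0.5 FPKM or more over all libraries. RNA was sequenced from 3 WT and 3 *FGFR2* KO lines of HaCaT, a spontaneously immortalized human keratinocyte line, with 1 library per line. The KO lines had been made with Cas9 and an sgRNA against an exon of *FGFR2*, the receptor for FGF7 and FGF10 on keratinocytes, and each KO line was expanded from a single sorted cell. The WT lines had an intact *FGFR2* gene. Among all its WT lines the study counts clones and 1 uncloned parental population. For the HaCaT RNA-seq values, however, a figure legend of the study gives 3 lines that were clonally expanded. Which WT line each library came from is not given in the sources used here. A difference between the groups is therefore a difference between a few lines of 1 cell line. All lines were cultured in medium with serum, and no FGF or other treatment is given for these libraries. The study's general protocol for RNA had cells grown to confluency, but whether it applied to these libraries is not stated, and the density of each culture at harvest is not given in the sources used here.

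The values are FPKM, fragments normalised for transcript length and library depth, as the authors deposited them. The steps between low values put the depth of the libraries at an estimated 67500000 to 88100000 fragments. *FGFR2*, the targeted gene, had levels of 21.6, 39.7 and 15.0 FPKM in WT lines and 3.04, 2.26 and 4.31 FPKM in KO lines. All 3 KO libraries thus lay below all 3 WT libraries, and the labels hold for the targeted gene (log2 fold change -2.73, SE 0.36). All 7 keratinocyte markers were measured in every library, with *KRT5* between 6086.3 and 14767.9 FPKM, whereas 0 of 4 leukocyte markers passed the filter. Of 7 fibroblast markers 2 passed, *COL1A1* at 6.82 to 16.7 FPKM and *DCN*, while *PDGFRA* and *COL3A1* were near 0; of 3 endothelial markers 2 passed, *VWF* at 5.66 to 27.1 FPKM and *CDH5*. In WT replicate 2 *DCN* was at 15.5 FPKM and *CDH5* at 4.92 FPKM, against at most 1.66 and 0.128 FPKM in the other libraries. Other markers of these cell types did not all follow, since *VWF* was highest in WT replicate 3 and *LUM* in KO replicate 1 (1.85 FPKM). The share of mitochondrial genes in the summed FPKM was 21.5 to 27.6% in WT lines and 15.8, 23.7 and 11.9% in KO lines. After scaling to nuclear genes, the log2 fold change of KO against WT was 0.92 for *TEAD4* and 0.77 for *CCN1*.

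YAP and TAZ, the products of *YAP1* and *WWTR1*, are transcriptional coactivators with no DNA-binding domain of their own; they act in the nucleus by binding TEAD proteins, which recognise a short motif in enhancers and promoters. The Hippo kinases MST1, MST2, LATS1 and LATS2 phosphorylate YAP and TAZ and keep them in the cytoplasm, and cell crowding is a classical trigger of this. In the epidermis YAP and TAZ are active mainly in basal keratinocytes. This control acts on proteins, so the level of *YAP1* or *WWTR1* mRNA does not measure their activity; the mRNAs of target genes such as *CCN1*, *CCN2*, *ANKRD1* and *AMOTL2* are the usual readout. *LATS2*, *AMOTL2* and *AJUBA* belong to the pathway in another way, since *LATS2* and *AMOTL2* restrain YAP and TAZ while being induced by them, and *AJUBA* is a LIM protein that binds LATS kinases at adherens junctions.

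The TEAD motif can be read directly in the promoters of several of these genes. RefSeq promoter windows (GRCh38.p14), which hold 250 bases before and 50 bases after a transcription start, were found for 7 of the 10 genes in 10 windows. No window was found for *TEAD1*, *TEAD4* or *CCN1*. The letters GGAATG, searched on both strands, were present in 6 of the 10 windows, whereas 14.0% of all 35116 promoter windows held them. The 250 bases before the start are shown for windows of 4 of the genes, in lower case with the motif in capitals. *CCN2* and *ANKRD1*, with the most matches, had the lowest mRNA levels of the 10 genes. *AMOTL2* and *AJUBA*, with 1 match each, had the highest, and these 4 genes are shown for that contrast. All 4 genes lie on the minus strand and the sequences read 5′ to 3′ along the gene, at chr6:131951373-131951622 for *CCN2*, chr10:90921088-90921337 for *ANKRD1*, chr3:134374448-134374697 for 1 of the 2 windows of *AMOTL2* and chr14:22976843-22977092 for 1 of the 2 windows of *AJUBA*.
CCN2: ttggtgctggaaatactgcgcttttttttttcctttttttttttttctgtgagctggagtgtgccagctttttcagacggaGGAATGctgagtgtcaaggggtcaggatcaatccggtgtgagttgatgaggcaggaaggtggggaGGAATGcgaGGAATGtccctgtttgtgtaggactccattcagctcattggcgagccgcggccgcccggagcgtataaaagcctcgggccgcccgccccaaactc
ANKRD1: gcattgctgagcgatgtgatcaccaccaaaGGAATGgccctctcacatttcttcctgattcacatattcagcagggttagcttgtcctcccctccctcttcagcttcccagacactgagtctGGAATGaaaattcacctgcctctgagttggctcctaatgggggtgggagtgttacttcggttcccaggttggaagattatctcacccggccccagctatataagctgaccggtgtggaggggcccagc
AMOTL2: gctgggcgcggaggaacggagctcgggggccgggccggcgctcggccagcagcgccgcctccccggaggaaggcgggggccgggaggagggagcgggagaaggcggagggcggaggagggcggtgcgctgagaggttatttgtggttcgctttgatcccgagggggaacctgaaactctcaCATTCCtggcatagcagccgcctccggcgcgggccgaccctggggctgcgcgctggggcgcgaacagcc
AJUBA: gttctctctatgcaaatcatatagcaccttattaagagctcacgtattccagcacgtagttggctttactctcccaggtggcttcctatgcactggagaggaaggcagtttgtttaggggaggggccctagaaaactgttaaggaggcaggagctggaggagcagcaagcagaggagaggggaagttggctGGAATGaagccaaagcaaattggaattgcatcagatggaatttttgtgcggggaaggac
In *CCN2* the 3 matches began 169, 104 and 95 bases before the start; 3 or more matches were present in 45 of all windows (0.128%). In *ANKRD1* the matches began 220 and 128 bases before the start, and an AP-1 motif (TGANTCA, in 7.71% of all windows) began at 195 bases. *AMOTL2* carried its match 69 bases before the start on the opposite strand, read as CATTCC, and *AJUBA* 59 bases before it. The other window of *AMOTL2* and the other window of *AJUBA*, which are not shown, held no match. *YAP1* held 1 match 162 bases before its start and *LATS2* 1 match that began 9 bases after it, whereas neither window of *WWTR1* held one. A match is a run of letters and does not show binding, and enhancers outside these windows were not read.

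The mRNA levels of the 10 genes spanned a wide range in these keratinocytes. *AJUBA* was the highest with a mean of 133.6 FPKM over the 6 libraries, followed by *AMOTL2* (64.6 FPKM), *YAP1* (55.3 FPKM), *WWTR1* (32.2 FPKM), *TEAD4* (30.2 FPKM), *TEAD1* (12.1 FPKM), *LATS2* (6.21 FPKM) and *CCN1* (5.02 FPKM). *ANKRD1* and *CCN2* were close to 0, with means of 0.101 and 0.0615 FPKM. *AJUBA* lay above *AMOTL2*, *YAP1* above *WWTR1*, *TEAD4* above *TEAD1* and *TEAD1* above *LATS2* in 6 of 6 libraries. Other neighbours in this order were not separated in every library, since *AMOTL2* lay above *YAP1* in 5 of 6, *WWTR1* above *TEAD4* in 3 of 6, *LATS2* above *CCN1* in 5 of 6 and *ANKRD1* above *CCN2* in 4 of 6. The order is one of levels per transcript length, as FPKM gives it, and no test was run between genes.

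Of the 12241 genes tested with limma, 0 (0%) passed an adjusted p of 0.05 with an absolute log2 fold change of 0.5, and the smallest adjusted p was 0.261. Accordingly, none of the 8 tested YAP-TEAD genes passed. The study tested counts instead and reported differentially expressed genes at an FDR of 0.05, *FGFR2* among them. The absence of such genes here therefore holds for limma on FPKM and not for the data as such. At an unadjusted p of 0.05 with the same fold, 1536 genes (12.5%) passed, 1251 (10.2%) higher and 285 (2.33%) lower in KO cells. Among the 8 YAP-TEAD genes, 2 were past this unadjusted threshold, *TEAD4* and *CCN1*, both higher in KO. *TEAD4* stayed past this threshold under every alternative run, whereas *CCN1* fell short of it with no filter on low values, with median-of-ratios scaling, quantile normalization or chromosome medians removed, and without WT replicate 1, WT replicate 2 or KO replicate 3. Groups that did not overlap were found for 2245 tested genes with KO higher (18.3%) and for 706 with KO lower (5.77%); among the 8, *TEAD4* was the 1 such gene. Counts of 1 and 2 among 8 genes are too small to be set apart from this background. The median log2 fold change of all tested genes was 0.09, and 81.4% of the genes past the unadjusted threshold were higher in KO; after median-of-ratios scaling, which moved the median of all genes by -0.11, 60.1% were higher.

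The coactivator genes *YAP1* and *WWTR1* showed no difference beyond the spread between lines. *YAP1* (ENSG00000137693, chromosome 11, 102110447 to 102233424 in GRCh38, as for all genes here) was at 50.4, 72.6 and 47.1 FPKM in WT and at 57.8, 43.4 and 60.6 FPKM in KO libraries. The highest value belonged to a WT line and the lowest to a KO line, and the groups overlapped. The log2 fold change was -0.06 (SE 0.21, 95% interval -0.55 to 0.43, limma adjusted p = 0.9), and the interval covers changes in both directions.

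*WWTR1* (ENSG00000018408, chromosome 3, 149517235 to 149736714), which encodes TAZ, was at 30.3, 35.8 and 27.0 FPKM in WT and at 27.9, 30.6 and 41.7 FPKM in KO libraries. These groups overlapped as well (log2 fold change 0.09, SE 0.19, 95% interval -0.35 to 0.54, limma adjusted p = 0.819). *YAP1* exceeded *WWTR1* in each library, by a factor of 1.67, 2.03 and 1.75 in WT and of 2.07, 1.42 and 1.45 in KO. The factor had a mean of 1.81 ± 0.191 in WT and 1.65 ± 0.367 in KO (SD, n = 3, exact two-sided permutation p = 0.6; the smallest p of 3 against 3 is 0.1). The summed level of both coactivators was 87.7 ± 18.3 FPKM in WT and 87.3 ± 14.2 FPKM in KO (SD, n = 3).

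The TEAD genes differed from each other in how they compared between the groups. *TEAD1* (ENSG00000187079, chromosome 11, 12674421 to 12944737) was at 10.7, 16.5 and 9.18 FPKM in WT and at 9.96, 9.54 and 16.6 FPKM in KO libraries. Each group held 1 high line, and the means were nearly equal, at 12.1 ± 3.86 and 12.0 ± 3.95 FPKM (SD, n = 3). The log2 fold change was -0.01 (SE 0.28, 95% interval -0.67 to 0.64, limma adjusted p = 0.985).

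*TEAD4* (ENSG00000197905, chromosome 12, 2959330 to 3040676) was at 17.9, 18.8 and 21.4 FPKM in WT and at 32.1, 30.7 and 60.4 FPKM in KO libraries. Every KO line lay above every WT line, the WT lines were close together, and KO replicate 3 was far above the other KO lines. The mean was 19.3 ± 1.83 FPKM in WT and 41.1 ± 16.8 FPKM in KO (SD, n = 3), a ratio of 2.13. The log2 fold change was 1.0 (SE 0.26, 95% interval 0.39 to 1.61), or 0.91 above the median of all genes. It did not pass the adjusted threshold (limma adjusted p = 0.261), and the exact permutation p was 0.1, the smallest that 3 against 3 allows. Without KO replicate 3 the log2 fold change was 0.69, and without WT replicate 2 it was 0.98.

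The genes around *TEAD4* did not show this difference. The 64 tested genes within 5 Mb had a median log2 fold change of 0.05 and the 647 tested genes of chromosome 12 a median of 0.09, equal to that of all genes. In the 3 KO libraries, the genes within 5 Mb had a median log2 difference from the WT mean of 0.03, 0.03 and 0.03. The same was found around *CCN1*, where 33 genes within 5 Mb had a median log2 fold change of 0.01.

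Because HaCaT cells expressed all 4 TEAD genes, the composition of TEAD mRNA was also compared. *TEAD4* made up 26.9, 27.9 and 27.3% of the summed *TEAD1* to *TEAD4* FPKM in WT and 39.8, 38.8 and 52.1% in KO libraries. The share was nearly constant among WT lines and higher in each KO line, with means of 27.4 ± 0.523% and 43.6 ± 7.42% (SD, n = 3, exact permutation p = 0.1). The difference was 16.2 percentage points with all libraries, 12.0 without KO replicate 3 and at most 18.6 on omission of any single library. The share of *TEAD3* was 37.1, 35.7 and 36.4% in WT and 29.9, 29.4 and 14.3% in KO libraries, lower in each KO line (exact permutation p = 0.1). *TEAD3* itself was at 24.6, 24.0 and 28.5 FPKM in WT and at 24.1, 23.3 and 16.6 FPKM in KO, and these levels overlapped. The shares of *TEAD1* (exact permutation p = 0.4) and *TEAD2* (exact permutation p = 1.0) overlapped. These shares add up to a whole and are not independent of each other. The sum of the 4 TEAD genes was 66.4, 67.2 and 78.3 FPKM in WT and 80.7, 79.0 and 115.9 FPKM in KO. The groups did not overlap, as for 18.3% of all tested genes with KO higher. The margin was narrow, with KO replicate 2 (79.0 FPKM) just above WT replicate 3 (78.3 FPKM). The sum was not computed with another scaling. These shares and sums were computed after the values of *TEAD4* were known.

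**Figure D1:**
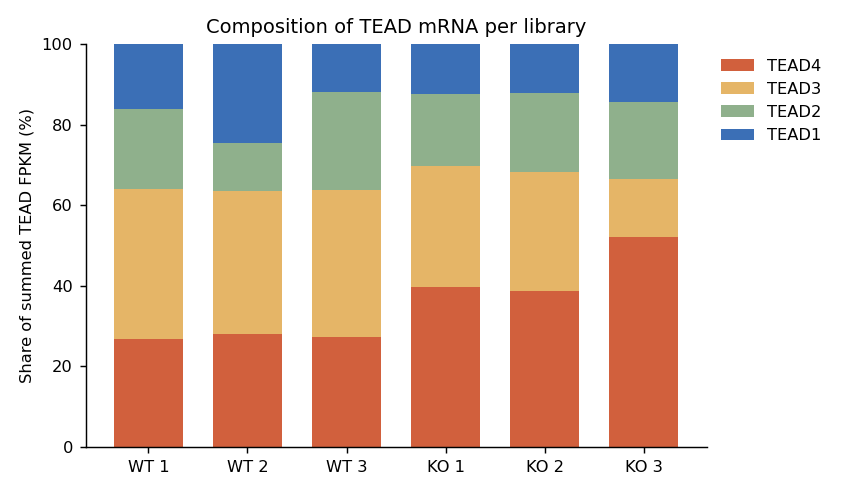
Share (%) of each TEAD gene in the summed FPKM of *TEAD1* to *TEAD4*, 1 bar per library. The *TEAD4* segment is 26.9 to 27.9% high in the WT bars and 38.8 to 52.1% in the KO bars, and the *TEAD3* segment is smallest in KO replicate 3 (14.3%).

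Of the target genes among the 8 tested, *CCN1* had the largest log2 fold change. *CCN1* (CYR61, ENSG00000142871, chromosome 1, 85580761 to 85584589) encodes a secreted matricellular protein and is an immediate early gene as well as a YAP target. It was at 2.84, 2.62 and 4.56 FPKM in WT and at 5.19, 4.39 and 10.5 FPKM in KO libraries. The groups overlapped slightly, since KO replicate 2 lay below WT replicate 3, and KO replicate 3 was again the highest. The mean was 3.34 ± 1.06 FPKM in WT and 6.69 ± 3.33 FPKM in KO (SD, n = 3), with a log2 fold change of 0.85 (SE 0.34, 95% interval 0.05 to 1.64, limma adjusted p = 0.284) and an exact permutation p of 0.2. Without KO replicate 3 the log2 fold change was 0.49, and without WT replicate 2 it was 0.71; the part of these libraries' other features in the difference was not tested.

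*CCN2* and *ANKRD1*, the most widely used YAP target genes together with *CCN1*, were nearly silent. *CCN2* (CTGF, ENSG00000118523, chromosome 6, 131948176 to 131951372), which encodes a matricellular protein, was at 0.0263, 0.0756 and 0.0358 FPKM in WT and at 0.0388, 0.0598 and 0.133 FPKM in KO libraries. With the length of its MANE Select transcript (2338 bases), these levels correspond to an estimated 5.0 to 26.8 fragments per library. *ANKRD1* (ENSG00000148677, chromosome 10, 90912096 to 90921087), which encodes an ankyrin repeat protein best known from cardiac muscle, was at 0.055 and 0.148 FPKM and listed at 0 in WT, and at 0.0127, 0.125 and 0.263 FPKM in KO libraries. This corresponds to an estimated 0 to 40.7 fragments. Neither gene was tested with limma, and the exact permutation p was 0.5 for *CCN2* and 0.6 for *ANKRD1*. Both genes varied more between lines of a group than between the group means.

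*AMOTL2*, *LATS2* and *AJUBA* were expressed in every library, and their groups overlapped. *AMOTL2* (ENSG00000114019, chromosome 3, 134355347 to 134375479), an angiomotin family member that binds YAP, was at 50.8, 56.4 and 76.1 FPKM in WT and at 70.7, 59.7 and 73.5 FPKM in KO libraries. The highest and the lowest values both came from WT lines (log2 fold change 0.17, SE 0.18, 95% interval -0.26 to 0.59, limma adjusted p = 0.651). The ratio of *CCN1* to *AMOTL2* was 0.0559, 0.0464 and 0.0598 in WT and 0.0734, 0.0735 and 0.143 in KO libraries, above every WT value in each KO line (exact permutation p = 0.1; a ratio chosen after the values were seen).

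*LATS2* (ENSG00000150457, chromosome 13, 20973036 to 21061586), a kinase of YAP and TAZ, was at 5.25, 5.97 and 7.04 FPKM in WT and at 6.33, 6.29 and 6.38 FPKM in KO libraries. The KO values fell within the WT range and were close together, and the log2 fold change was 0.06 (SE 0.16, 95% interval -0.32 to 0.44, limma adjusted p = 0.868). *AJUBA* (ENSG00000129474, chromosome 14, 22971177 to 22982551) was at 99.5, 139.6 and 139.7 FPKM in WT and at 155.3, 131.1 and 136.5 FPKM in KO libraries. WT replicate 1 stood below the rest, and the log2 fold change was 0.17 (SE 0.17, 95% interval -0.23 to 0.58, limma adjusted p = 0.627). It was 0.01 without WT replicate 1, and 0.5 with library weights that favour this library (limma adjusted p = 0.0663).

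**Figure D2:**
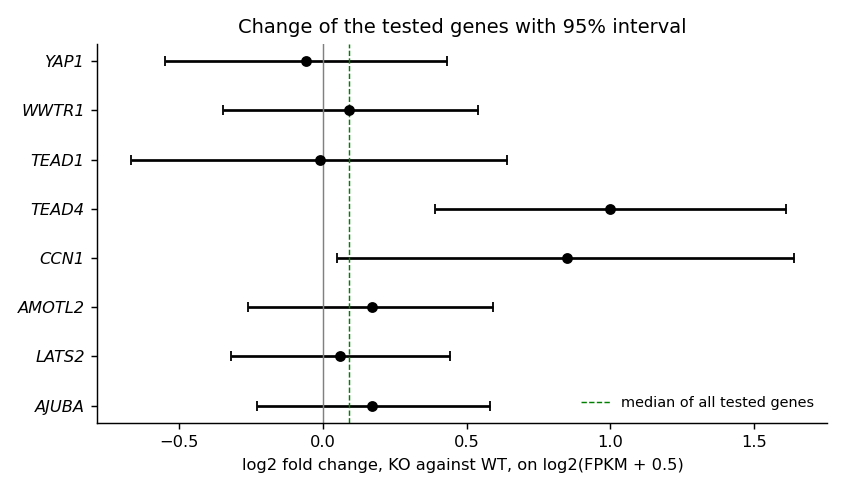
Log2 fold change of KO against WT on the log2(FPKM + 0.5) scale for the 8 tested genes, with the 95% interval of limma as bars; the dashed line is the median of all tested genes (0.09). The intervals of *TEAD4* (0.39 to 1.61) and *CCN1* (0.05 to 1.64) lie above 0 before adjustment for the number of genes, and the other 6 intervals include 0.

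The libraries varied in a way that the genotype did not separate. WT replicate 2 and KO replicate 3 were the 2 highest libraries for *YAP1*, *WWTR1*, *TEAD1*, *CCN2* and *ANKRD1*, also when each library was scaled to the sum of its nuclear genes. For *YAP1*, *CCN2* and *ANKRD1* the margin was narrow. So scaled, *YAP1* was at 56.2 in KO replicate 3 and 55.1 in KO replicate 1. In WT replicate 2 and KO replicate 2 the estimated fragments were 11.9 and 9.9 for *CCN2* and 17.9 and 15.9 for *ANKRD1*. For *TEAD1* these libraries lay 0.47 and 0.48 above the WT mean on the log2 scale, whereas the other 4 lay between 0.13 and 0.34 below it. The same libraries had the lowest median over 10 differentiation genes of dense keratinocyte cultures, with a median log2 difference from the WT mean of -1.21 and -2.15, against -0.79 to 1.25 in the others. *KRT10*, a keratin of suprabasal cells, was at 955.6, 607.4 and 2055.7 FPKM in WT and at 1502.9, 530.0 and 86.2 FPKM in KO libraries, so that KO replicate 2 was also low for this gene. Not every gene of the list followed the median, since *IVL* was lowest in KO replicate 1 (79.7 FPKM) and at 323.8 FPKM in WT replicate 2, and *FLG* was lowest in KO replicate 2 (24.5 FPKM). *TEAD4* and *CCN1* did not follow the pattern in WT replicate 2, where *CCN1* had its lowest value. This pattern was noticed after the values were seen, its 6 libraries allow no test, and the part of culture density in it was not tested. Since RNA came from whole cultures, fewer cells of a kind and less RNA per cell cannot be told apart.

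**Figure D3:**
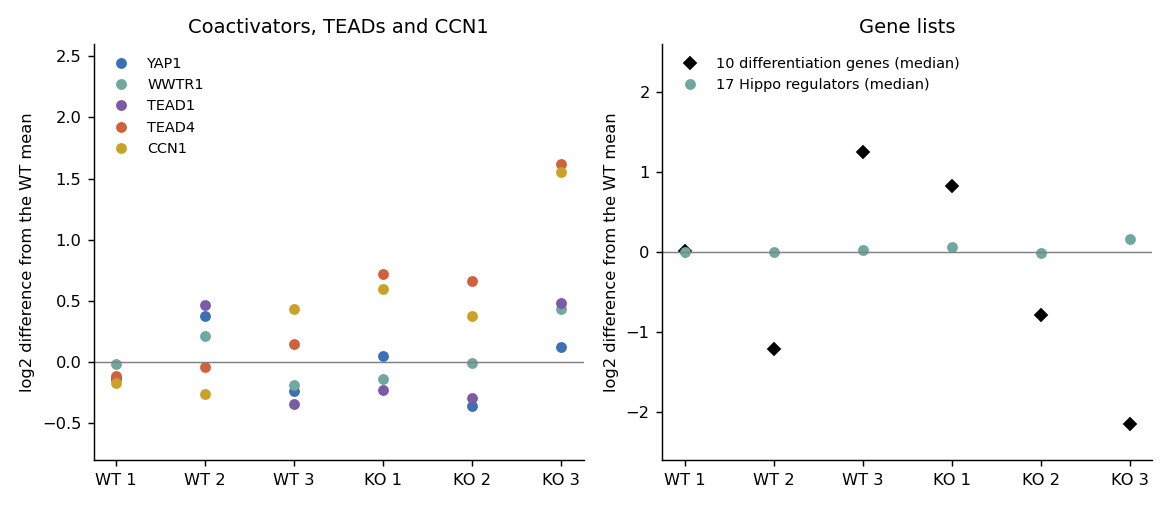
Log2 difference of each library from the WT mean for *YAP1*, *WWTR1*, *TEAD1*, *TEAD4* and *CCN1* (left) and the median over 10 differentiation genes and over 17 Hippo regulators (right). *YAP1*, *WWTR1* and *TEAD1* are raised above 0 in WT replicate 2 and KO replicate 3, in which the differentiation median is lowest (-1.21 and -2.15), and *TEAD4* is above 0.6 in all KO libraries.

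The genes of the Hippo pathway upstream of YAP differed little between the groups. Of 18 kinases, scaffolds and upstream regulators, 17 were tested and 0 passed the unadjusted threshold in either direction (10.2% higher and 2.33% lower among all genes). Their log2 fold changes ranged from -0.32 to 0.43 with a median of 0.07. Of the 17, 10 were above 0, as were 60.6% of all tested genes. For example, *LATS1* was at 12.0, 9.52 and 11.2 FPKM in WT and at 12.1, 10.9 and 13.5 FPKM in KO libraries, and *STK4*, which encodes MST1, at 35.6, 33.2 and 37.5 FPKM and at 37.9, 34.8 and 42.5 FPKM. The groups did not overlap for 2 genes, both higher in KO, as for 18.3% of all tested genes. These were the kinase gene *MAP4K4* (log2 fold change 0.26) and the LIM protein gene *LIMD1* (0.43), a relative of *AJUBA*. Both margins were narrow. *MAP4K4* was at 37.4 FPKM in KO replicate 3 and 36.7 FPKM in WT replicate 1. *LIMD1* was at 5.47 FPKM in KO replicate 2 and 5.4 FPKM in WT replicate 3.

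Of the 5 other TEADs and TEAD cofactors, 0 passed the unadjusted threshold and the median log2 fold change was -0.30 (-0.18 without KO replicate 3). *VGLL3* and *VGLL4* encode Vestigial-like proteins that bind TEADs, and *VGLL4* competes with YAP for them. *VGLL4* was at 41.4, 59.4 and 39.1 FPKM in WT and at 38.6, 35.7 and 25.6 FPKM in KO libraries, and *VGLL3* at 8.87, 10.4 and 8.74 FPKM and at 8.56, 7.80 and 6.27 FPKM. For both genes all KO values lay below all WT values, as they did for 5.77% of all genes, with log2 fold changes of -0.48 (limma adjusted p = 0.316) and -0.30 (limma adjusted p = 0.399). *VGLL1*, a further TEAD partner, was at 2.11, 73.8 and 1.51 FPKM in WT and at 4.62, 3.12 and 0.425 FPKM in KO libraries, so that its level in WT replicate 2 set the WT mean.

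Of 17 other YAP/TAZ signature targets, 15 were tested, 2 were past the unadjusted threshold upward and 1 downward (10.2% and 2.33% of all tested genes), and the median log2 fold change was 0.14. *F3*, which encodes tissue factor, was at 38.6, 37.9 and 48.3 FPKM in WT and at 72.7, 69.1 and 144.0 FPKM in KO libraries (log2 fold change 1.11, SE 0.28, limma adjusted p = 0.261). *FJX1*, which encodes a secreted factor related to four-jointed of the fly, was at 1.11, 1.42 and 1.56 FPKM in WT and at 3.34, 2.46 and 9.14 FPKM in KO libraries (log2 fold change 1.37, SE 0.42, limma adjusted p = 0.261). Both had all KO lines above all WT lines, as had 18.3% of all tested genes, and the highest value in KO replicate 3. *CCDC80* went the other way, at 184.6, 261.6 and 92.2 FPKM in WT and at 27.4, 154.8 and 21.6 FPKM in KO libraries, with overlapping groups (log2 fold change -1.85, SE 0.73, limma adjusted p = 0.279). *PTPN14*, which encodes a phosphatase that restrains YAP, lay below all WT values in each KO line, as did 5.77% of all tested genes. Its log2 fold change was -0.48 (SE 0.16, limma adjusted p = 0.261), so it was not past the unadjusted threshold. This gene was named after its values were seen. *IGFBP3* was at 1496.9 FPKM in WT replicate 2 and at 141.6 to 451.4 FPKM in the other 5 libraries.

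Actin and SRF-MRTF target genes were examined because the actin cytoskeleton acts on YAP and because MRTF shares targets with it. Of 14 genes, 13 were tested, 3 passed the unadjusted threshold upward and 0 downward (10.2% and 2.33% of all tested genes), and the median log2 fold change was 0.15. The 3 genes encode actin-binding proteins. *ACTN1* was at 84.8, 84.7 and 79.7 FPKM in WT and at 133.3, 123.5 and 208.9 FPKM in KO libraries (log2 fold change 0.86, SE 0.21, limma adjusted p = 0.261). *FLNA* was at 204.4, 146.8 and 255.7 FPKM in WT and at 337.1, 307.5 and 466.4 FPKM in KO libraries (log2 fold change 0.88, SE 0.25, limma adjusted p = 0.261). *CNN2* was at 104.9, 102.8 and 101.1 FPKM in WT and at 139.2, 126.7 and 188.8 FPKM in KO libraries (log2 fold change 0.53, SE 0.17, limma adjusted p = 0.261). In each case the groups did not overlap, with KO above WT as in 18.3% of all tested genes, and KO replicate 3 was the highest. The other 10 genes, among them *SRF* itself, did not pass, and without KO replicate 3 the median of the list was -0.02.

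Of the 11 differentiation genes, 10 were tested, 0 passed the unadjusted threshold upward and 1 downward (10.2% and 2.33% of all tested genes). All 10 had log2 fold changes below 0 (median -0.62), whereas 60.6% of all tested genes were above 0. The groups overlapped for all 10. This direction is that of mean log2 values. In mean FPKM, *KRTDAP* alone in the list was higher in KO (12.5 against 6.47 FPKM in WT), with 37.0 FPKM in KO replicate 1. The 10 genes were read from the same libraries, so their directions are not independent of each other. The gene past the threshold was *IVL*, which encodes involucrin of the cornified envelope, at 337.8, 323.8 and 180.3 FPKM in WT and at 79.7, 264.7 and 81.8 FPKM in KO libraries, with overlapping groups (log2 fold change -1.17, SE 0.48, limma adjusted p = 0.285). The median of this list depended on single libraries, at 0.23 without KO replicate 3, -0.03 without WT replicate 3, -1.45 without WT replicate 2 and -1.56 without KO replicate 1.

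The 5 genes whose level followed that of *CCN2* most closely over the 6 libraries, among 6198 genes that reached a mean of 1 FPKM and a log2 SD of 0.25, were *ARHGAP18* (Pearson r = 0.997), *PDCD11* (0.996), *VOPP1* (0.99), *DDX47* (0.987) and *NADK* (0.979). *ARHGAP18* was at 8.37, 11.2 and 8.88 FPKM in WT and at 9.06, 9.85 and 14.8 FPKM in KO libraries, so that WT replicate 2 and KO replicate 3 were again the 2 highest. *CCN2* itself rests on few fragments, and with 6 libraries many genes reach a high r. For *TEAD4*, chosen after its values were seen, the 5 closest of 6197 genes were *IPO4* (0.999), *TTC27* (0.999), *NCLN* (0.999), *F3* (0.998) and *PRMT7* (0.997). *IPO4* was at 17.5, 19.2 and 21.9 FPKM in WT and at 33.6, 31.8 and 71.6 FPKM in KO libraries, with KO replicate 3 the highest. *F3* of the YAP/TAZ target list was among these genes, but it had already been named for its difference between the groups. Both *F3* and *TEAD4* had all KO lines above all WT lines, as had 18.3% of all tested genes, with KO replicate 3 the highest. All values were read from the same 6 libraries, so this r is not a separate result.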

How the data were processed

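Gene expression was measured by RNA-seq in 6 HaCaT lines, with the groups and replicate numbers taken from the sample labels. Per the labels and the methods of the study, the authors prepared stranded mRNA libraries, trimmed reads with fastp 0.20.0 and pseudoaligned them with kallisto 0.46.1 to GRCh38.p13. The authors deposited FPKM per gene; how FPKM was calculated is not given in the sources used here. Of 21493 listed genes, 18 Y copies of pseudoautosomal genes were left out, and 21400 of the rest had a symbol in the GENCODE annotation.

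The test was limma (version 3.58.1, R 4.3.3) with a mean-variance trend and Benjamini-Hochberg adjustment, applied to log2(FPKM + 0.5) of the genes whose mean reached 0.5 FPKM. This scale understates changes of low genes. The authors tested counts, which were not used here. Depth was estimated from the steps of low values and did not enter a test. It was chosen as the depth at which most of these values were whole fragments within 0.05, which held for 70.2 to 73.0%. The share by chance is 10% for a depth fixed beforehand, so it does not test the chosen depth. Single values were compared with exact two-sided permutation tests. P-values measure the spread between lines, each with 1 library. The procedure was tested on simulated data, with the same spread between lines in both groups and planted changes larger than those of the tested YAP-TEAD genes. Smaller changes and unequal spreads were not simulated.

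The 10 genes and the lists were chosen with earlier results of these data known. Named in the text are the 10 genes, *FGFR2*, list genes past the unadjusted threshold (p 0.05, log2 fold change 0.5 in either direction), and the 5 genes most like *CCN2*; any other gene was named after its values were seen. Of the marker lists, 7 of 7 keratinocyte, 2 of 7 fibroblast, 1 of 4 melanocyte, 0 of 4 leukocyte and 2 of 3 endothelial markers passed the filter. Alternatives were another pseudocount, filter, scaling, empirical Bayes step or weighting, a replicate block and the omission of libraries.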

Additional observations from a re-analysis of the deposited data

How the results depend on the processing

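*TEAD4* kept a positive log2 fold change under all alternatives, from 0.67 without WT replicate 2 and KO replicate 3 to 1.17 without KO replicate 2, with a limma adjusted p of 0.0313 to 0.577; it passed the adjusted threshold with library weights only (0.93, adjusted p = 0.0313), under which WT replicate 1 carried 89.7% of the weight of its group. *CCN1* was positive throughout, from 0.36 without both of these libraries to 1.08 without KO replicate 2, and did not pass. With library weights, 1396 genes in all and 1 of the 8 YAP-TEAD genes passed the adjusted threshold, *FGFR2* among the former (-2.66, adjusted p = 0.0191); under the other alternatives none of the 8 did. At the unadjusted threshold, 1 instead of 2 of the 8 passed, with *CCN1* the gene lost, with no filter on low values, median-of-ratios scaling, quantile normalization or chromosome medians removed, and when WT replicate 2 and KO replicate 3 were both left out; omitting 1 library gave 1 to 2 of the 8 and 630 to 2256 of all genes, the lowest without KO replicate 3 (and 960 without WT replicate 1), and omitting both gave 650. The omission of both was chosen after seeing the data.

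The log2 fold changes of *AMOTL2* (0.05 to 0.38) and *AJUBA* (0.01 to 0.5) stayed above 0 under all alternatives; with library weights, *AJUBA* was the third of the 8 genes past the unadjusted threshold. Those of *YAP1*, *WWTR1*, *TEAD1* and *LATS2* changed sign. *YAP1* was at 0.1 with library weights, 0.04 without both libraries and -0.18 to 0.13 with 1 library omitted. *WWTR1* was at -0.02 with median-of-ratios scaling, quantile normalization or chromosome medians removed, and at -0.07 to 0.21 with 1 library omitted. *TEAD1* was at 0.02 with TPM scaling and -0.26 to 0.22 with 1 library omitted. *LATS2* was at -0.04 with median-of-ratios scaling, -0.02 with quantile normalization, -0.01 with scaling to nuclear genes and -0.03 to 0.16 with 1 library omitted. The ratio of *YAP1* to *WWTR1*, KO minus WT, was -0.167 with all libraries, 0.037 without both, -0.379 without KO replicate 1 (exact permutation p = 0.1, the smallest possible) and -0.0521 without KO replicate 2. The median of the Hippo regulators was -0.04 with median-of-ratios scaling and with quantile normalization and -0.07 with chromosome medians removed. That of the actin genes was 0.32 with a mean of at least 2 FPKM, -0.01 with chromosome medians removed, 0.04 without both libraries and -0.02 to 0.23 with 1 library omitted. That of the other YAP/TAZ targets was 0.06 to 0.29 with 1 library omitted. That of the other TEADs and cofactors was -0.39 to -0.18 with 1 library omitted, -0.13 with library weights and -0.1 without both libraries. The differentiation median was -1.56 to 0.23 with 1 library omitted and 0.13 with library weights. The cause of these shifts was not tested.

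Deviations from the group means had correlations of -0.206, 0.225 and 0.049 between replicates of the same number. Between replicates of different numbers they were -0.367 to 0.294. So few libraries cannot show whether the numbers pair the lines. With the replicate block 0 genes passed the adjusted threshold and 1762 the unadjusted one, 2 of the 8 among them (*TEAD4*, adjusted p = 0.108; *CCN1*, adjusted p = 0.129).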
